A study of Mus musculus and Rattus norvegicus with 2 samples.

Results

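The fragments described here are the 5′ ends of the cytosolic valine tRNAs with the anticodons CAC and AAC, read in small RNA libraries of sperm. A read was a member if its first 18 nt matched the 5′ end of mature tRNA-Val-CAC/AAC with at most 1 mismatch, whatever annotation the deposited table gave it. In the mouse, 28136 of 691381 listed reads and 249 of 86644 distinct sequences were members. In the rat, 22307 of 2102735 listed reads and 217 of 137388 distinct sequences were members. All members lay on the plus strand of their database entry. The first 18 nt matched exactly in 27563 mouse and 21967 rat member reads and with 1 mismatch in 573 and 340. Just outside the limit, 8 mouse and 6 rat reads had 2 mismatches there, and 0 and 22 reads had 3.

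Both libraries were made from purified sperm of the cauda epididymis, the storage end of the duct in which sperm mature. One came from C57BL/6 mice aged 2 months and the other from young adult Sprague Dawley rats of 450 g, with no treatment named for either. RNA of 18 to 45 nt was sequenced on a Genome Analyzer IIx, an early Illumina instrument. With 1 library per species there is no replicate error and no test, so values of the species are set side by side. Intervals in brackets are exact 95% intervals that cover counting error only, since copies made by PCR are not independent molecules.

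A tRNA folds into an acceptor stem, a D arm, an anticodon arm and a T arm, and the anticodon sits in the loop of the anticodon arm. Ribonucleases such as angiogenin can cut that loop and leave a 5′ and a 3′ fragment, and 5′ fragments are abundant in mature mammalian sperm. In eukaryotic tRNAs encoded with A at the first anticodon position, that base is commonly converted to inosine, which reverse transcriptase reads as G. Position 26, between the D and anticodon arms, often carries a methylated guanosine that can cause misreading during reverse transcription.

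The mouse reference copy, shown because every position below is counted on it, was n-TVcac9 (RefSeq, GRCm38.p6, chr13:23446142-23446214, minus strand), a tRNA gene of 73 nt. Capitals mark its anticodon, and positions count from 1 at the tRNA 5′ end.
n-TVcac9: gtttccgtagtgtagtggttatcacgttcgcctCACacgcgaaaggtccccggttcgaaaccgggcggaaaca
The bases at positions 27 to 31 pair with those at 39 to 43 to form the anticodon stem, so the loop spans positions 32 to 38 and the anticodon 34 to 36. RefSeq lists 11 such CAC genes and 8 AAC genes in this mouse build, 5 of each on chromosome 13. No rat tRNA gene was used, and the same consensus served for both species.

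The reads below carry the main 3′ ends, and capitals mark bases of the anticodon loop.
Fragment ending at 30: gtttccgtagtgtagtggttatcacgttcg
Fragment ending at 32: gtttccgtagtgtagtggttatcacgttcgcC
Fragment ending at 33: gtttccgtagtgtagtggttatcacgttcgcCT
Mouse fragment ending at 34: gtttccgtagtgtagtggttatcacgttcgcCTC
Mouse fragment ending at 35: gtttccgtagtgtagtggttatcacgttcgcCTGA
Mouse fragment ending at 36: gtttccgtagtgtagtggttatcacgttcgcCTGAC
The fragment ending at 33, which stops just before the anticodon, was the most abundant member in both libraries. Its count was 18604 for mouse (exact Poisson interval 18338 to 18873) and 15927 for rat (15681 to 16176). It alone made up 66.1% of mouse members and 71.4% of rat members. With it left out, the end at 33 held 43.4% and 1.98% of the rest. All remaining reads of 33 nt carry a mismatch, and few of these could be listed in the rat, as described below. These values therefore do not compare the species. The 10 most abundant sequences together held 91.6% and 96.1%.

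As a share of listed reads, tRNA-Val 5′ fragments reached 4.07% in mouse sperm (4.02 to 4.12) and 1.06% in rat sperm (1.05 to 1.07). The mouse share was 3.84 times the rat share (3.77 to 3.90). These shares are of the reads listed in the deposited tables: 78279 mouse and 63001 rat identifiers in the rank order of sequences are not in the tables used here. The lowest identifier listed was 4 for mouse and 1 for rat, so the unlisted mouse sequences may include some of high rank. The reads behind the unlisted identifiers were not analysed here, and their effect on the shares and the ratio was not tested. When each distinct sequence was counted once, the ratio was 1.82. When reads starting at positions 1 to 4 were all counted, the ratio was 2.64. By annotation, 372238 of 691381 mouse reads and 342754 of 2102735 rat reads were tRNA. Taken the same way, tRNA-Gly 5′ fragments made up 22.6% of mouse and 6.26% of rat listed reads. For tRNA-Glu-CTC the shares were 20.2% and 1.26%, and for tRNA-His 2.81% and 2.80%. A higher mouse share was thus not particular to tRNA-Val.

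Markers of cell types were read from the same tables. The 3 sperm microRNAs miR-34c-5p, miR-34b-5p and miR-449a-5p summed to 297 mouse and 6180 rat reads. All 5 epithelial microRNAs (miR-141-3p, miR-200a-3p, miR-200b-3p, miR-200c-3p and miR-375-3p) were present, with sums of 606 and 288. All 3 stromal ones (miR-143-3p, miR-145 5p and miR-199a-3p) were present with sums of 2412 and 843, of which miR-143-3p held 2392 and 813. Of 4 blood microRNAs, miR-451a and miR-486-5p had 8 and 32 mouse reads and were at 0 in the rat. For miR-142-5p each library held 1 read, and miR-150-5p had 0 mouse reads and 1 rat read. Blood sums were 41 (mouse) and 2 (rat). The part of other cells in the tRNA-Val values was not tested.

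Cleavage fell at a narrow place in both species. In the mouse, 98.0% of members (97.8 to 98.1) ended inside the anticodon loop, and in the rat 85.4% (84.9 to 85.8). No rat read past 33 was listed, where listing was limited as described below. Ends at 32 and 33 alone held 90.1% of mouse members (89.8 to 90.5) and 85.4% of rat members. Since members start at the tRNA 5′ end, the read length gives the position of the last base. Lengths of 28 to 36 nt held 99.6% of mouse and 98.3% of rat members.

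The end at position 33 held 22739 mouse reads, 80.8% of members (80.4 to 81.3), and 16053 rat reads, 71.96% (71.4 to 72.6). The end at 32, the base before it and the first of the loop, held 9.29% of mouse and 13.4% of rat members. The end at 31, the last base of the stem, held 1.48% and 1.49%. In both species the ends just before the anticodon therefore held most members.

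The species differed in the lesser ends. The end at 30, inside the stem, held 23 mouse reads, 0.0817% of members (0.0518 to 0.123), against 2302 rat reads, 10.3% (9.92 to 10.7). Among reads of 28 to 33 nt that matched the consensus exactly, the end at 30 held 0.0987% (21 reads) of the mouse set and 9.23% (1910 reads) of the rat set. An exact match of up to 33 nt could be listed in both tables, so this difference does not rest on mismatched reads. A smaller group of short fragments ended at 23 and 24, in the D arm, with 106 mouse reads (0.377%) and 308 rat reads (1.38%).

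**Figure D1:**
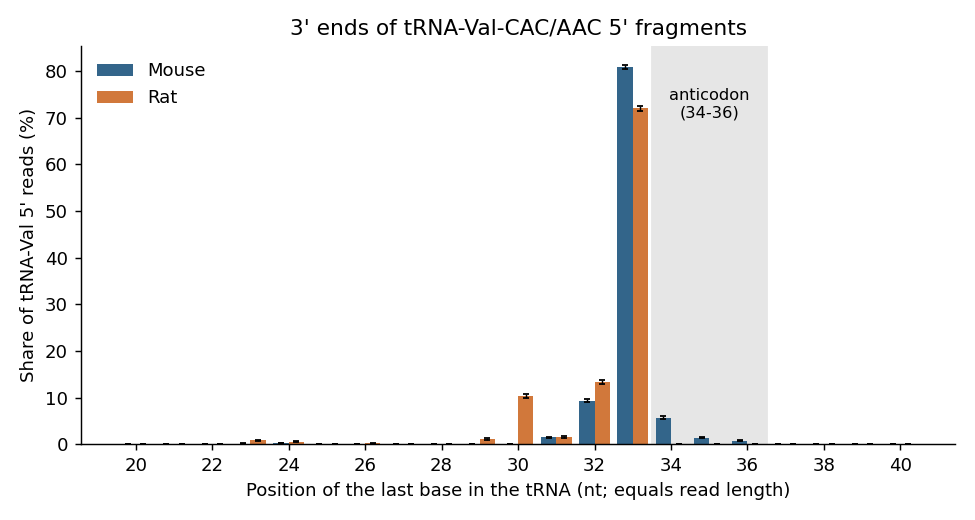
Share of tRNA-Val 5′ reads, in percent, by the position of the last base (x axis, nt) in the mouse and rat libraries; error bars are exact 95% intervals for counting error and the grey band is the anticodon. Position 33 holds 80.8% of mouse and 71.96% of rat members, the end at 30 is visible in the rat alone, and ends inside the anticodon are listed in the mouse alone.

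Ends past position 33, inside or beyond the anticodon, were seen in 2218 mouse reads, 7.88% of members (7.57 to 8.20). In the rat there were 0, with an upper limit of 0.0134% of members for reads that the table would list (3 reads taken as the limit of a zero count). The rat entry against which 20956 of the 22307 members were listed differs from the consensus at C6T and G30A (consensus base, position, entry base). The deposited tables allow at most 2 mismatches, so a rat read that runs on could be listed there only if it matched that entry at each further base. Loss of longer rat fragments at listing and their absence from the sperm cannot be told apart here.

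Mouse reads past position 33 show the first anticodon base, which differs between CAC and AAC genes. Of 2218 reads, 1492 had C at position 34 (67.3%, 65.3 to 69.2), as tRNA-Val-CAC encodes. The other 726 had G (32.7%, 30.8 to 34.7), the substitution C34G. Reads with A, the base that tRNA-Val-AAC genes encode there, numbered 0, as did reads with T, with an upper limit of 0.135% each. No AAC gene sequence was used here, so G at 34 was not matched to an AAC gene, and reads that stop before the anticodon were not assigned to either family.

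Reads with C and with G at position 34 ended at different places. Of the C reads, 96.0% (94.9 to 97.0) stopped at 34 itself, 53 at 35, 1 at 36 and 5 past 36. The C read at 36 carried a mismatch elsewhere, and 0 G reads ran past 36. Of the G reads, 24.2% (21.2 to 27.5) stopped at 34, 47.0% (43.3 to 50.7) at 35 and 28.8% (25.5 to 32.2) at 36. The most abundant single sequences were 1276 reads for C ending at 34, 336 for G ending at 35 and 204 for G ending at 36. Exact matches with either base could be listed up to position 36 in the mouse, because 1 mouse entry differs from the consensus at G7C alone.

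**Figure D2:**
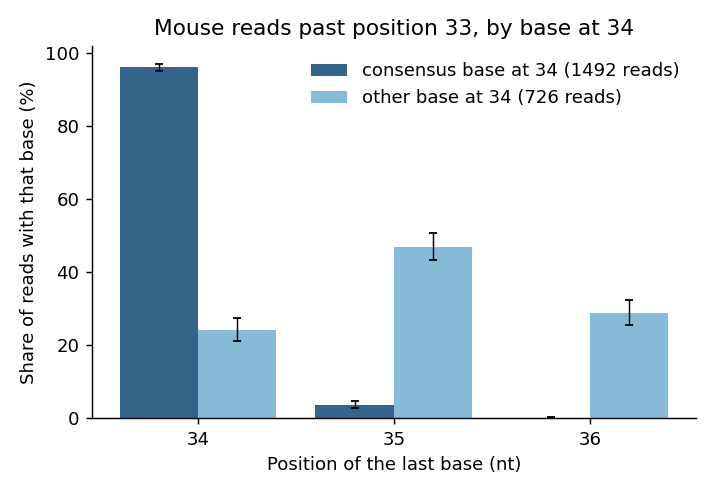
Mouse tRNA-Val 5′ reads that run past position 33, split by the base read at position 34 into the consensus base (C, 1492 reads) and the other base (G, 726 reads); the y axis is the share of each set, in percent, that ends at 34, 35 or 36, with exact 95% intervals. The C reads end at 34 in 96.0%, while 47.0% and 28.8% of the G reads end at 35 and 36.

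The remaining tRNA was rare among listed reads matching the mouse reference copy with at most 1 mismatch outside position 34. Other tRNA-Val copies and rat genes were not searched. Reads starting at position 31 or later numbered 249 for mouse and 42 for rat, 0.877% and 0.188% of these reads and members together. The most abundant of each kind in the mouse, shown because both start at 31 and hold the whole anticodon in capitals, are these.
Mouse fragment from 31, C at 34: cctCACacgcgaaaggtccccgg
Mouse fragment from 31, G at 34: cctGACacgcgaaaggtccccgg
The first had 110 reads and the second 40. Over all mouse reads starting at 31, C stood at position 34 in 160, G in 50 and A in 0. In the rat C stood there in 11 reads and G in 1. These fragments start before the position at which most members end, so they overlap the members by positions 31 to 33. Reads carrying the CCA tail of mature tRNA numbered 16 for mouse and 0 for rat, and 0 reads in either library were an exact antisense match.

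Mismatches against the consensus, leaving out position 34, were limited by the way reads were listed. In the mouse, 83.3% of members (82.8 to 83.7) had none, and in the rat 94.3% (94.0 to 94.6). In the rat, reads of 33 nt were free of mismatches in 99.2%, against 79.9% at 32 nt and 83.0% at 30 nt. Rat reads of 33 nt were listed under 3 tRNA entries. One of them took 16040 of the 16053 reads and differs from the consensus at C6T and G30A, so a perfect read of 33 nt already uses both allowed mismatches there. The other 2 entries differ at 4 positions, C6T, T27C and C29T with G26A or G26T, and took 9 and 4 reads. Rat members listed under rno_piR_005901, an entry that equals the consensus over the reads it took, numbered 934, all mismatched and none longer than 32 nt. In the mouse, the entry that differs at G7C alone lets a read carry 1 further mismatch, which for a read with G at position 34 is that base itself. Position by position values are therefore compared on reads ending at 30 to 32, 3054 from mouse and 5626 from rat. The allowance was still not equal there, since rno_piR_005901 equals the consensus and each of the 6 mouse entries differs from it.

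On those reads mismatches gathered at positions 23 and 26. Position 26 was mismatched in 5.70% of mouse reads (4.90 to 6.58) and 9.95% of rat reads (9.18 to 10.8). Position 23 was mismatched in 3.57% of mouse reads (2.94 to 4.29) and 4.78% of rat reads (4.24 to 5.37). The bases between them were mismatched far less: position 25 in 0.164% and 0.107%. In the rat position 7 followed with 2.08%, against 0.196% in the mouse. In mouse reads of 33 nt the order was reversed, with 6.72% at position 23 and 3.92% at position 26, and position 7 was mismatched in 0.875%. Some rat entries carry G26A or G26T themselves. Gene copies with another base were not set apart from errors of reading, and the source of the mismatches was not tested.

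The mismatched reads of the mouse library that rank highest, shown because they carry these changes, are the following, with the changed base in capitals.
C23A form: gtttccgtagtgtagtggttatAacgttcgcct
G26T form: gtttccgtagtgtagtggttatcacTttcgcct
T33G form: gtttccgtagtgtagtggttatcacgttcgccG
The C23A form had 852 reads, the G26T form 491 and the T33G form 893. Each of these sequences had 0 reads in the rat table, in which each of the 3 entries that took reads of 33 nt would differ from them by more than 2 bases.

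Over all mouse members, C23A was counted in 960 reads and C23T in 511, and G26T in 633 and G26A in 262. In the rat G26T led with 455 reads, followed by C23A with 173, C23T with 87 and G26A with 86. G26T was thus the commonest change at position 26 in both species, and C23A the commonest at position 23. T33G was counted in 901 mouse reads against 24 for T33C and 18 for T33A, and 0 of the 2218 reads that run past 33 were mismatched at that position. A changed last base and an added base after position 32 cannot be told apart in such reads.

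**Figure D3:**
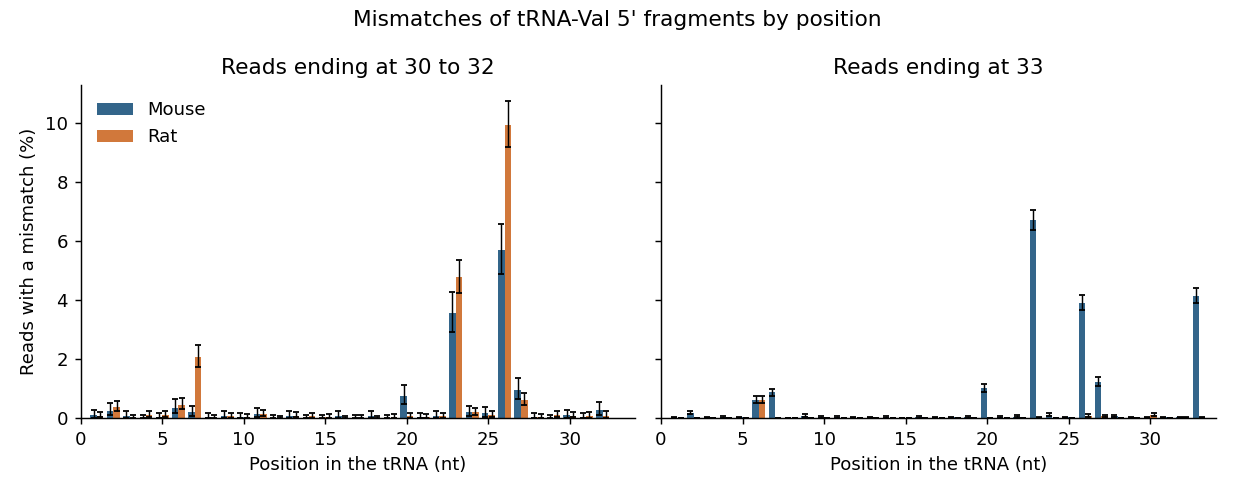
Share of tRNA-Val 5′ reads, in percent, that differ from the consensus at each position (x axis, nt) for reads ending at 30 to 32 (left) and at 33 (right), by species, with exact 95% intervals. Positions 23 and 26 stand out in both species on the left (3.57% and 5.70% for mouse, 4.78% and 9.95% for rat). On the right the mouse values at these positions are 6.72% and 3.92%, and the rat bars are near 0. The rat reads of 33 nt were listed under entries that differ from the consensus at 2 or 4 positions, with 2 mismatches allowed.

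Reads that begin later in the same tRNA put each tRNA position at an earlier place in the read. In rat reads ending at 30 to 32, position 26 was mismatched in 9.95% at a start of 1 and 10.96% (9.47 to 12.6) at 2. At starts of 3 and 4 it was mismatched in 9.96% (8.26 to 11.9) and 11.6% (8.71 to 15.1). In these rat reads the mismatch at position 26 stayed with the tRNA position. Position 23 was mismatched in 4.78% of reads that started at 1 and in 0.125% (0.0151 to 0.449) of those that started at 2. It was mismatched in 0 of 1104 and 0 of 422 reads that started at 3 and 4. The base that was then the 23rd of the read was mismatched in 1.12% at a start of 2 (position 24) and in 1.36% at a start of 3 (position 25). At a start of 4 the 23rd base is position 26 itself. Position 23 thus kept its share neither by tRNA position nor by place in the read. Mouse reads of this kind that started at 2, 3 and 4 numbered 6, 1 and 1, too few to compare.

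Other tRNA families gave values for the same read positions. Here a read counts as mismatched if its base is not the commonest of its family at that place. Differences between gene copies therefore count too, and limits of listing were not examined for the other families. In the mouse, base 23 was mismatched in 4.73% of tRNA-Gly, 0.644% of tRNA-Glu-CTC and 1.46% of tRNA-His 5′ fragments, against 6.08% for tRNA-Val over all its members. Base 26 was mismatched in 0.248%, 0.0108% and 0.154% of the same families, against 3.95% for tRNA-Val. In the rat, base 23 was mismatched in 2.53%, 1.16% and 1.81%, against 1.35% for tRNA-Val over all its members, most of them the listing-limited reads of 33 nt. Base 26 was mismatched in 0.206%, 0.0151% and 0.217%, against 2.70% for tRNA-Val. Changes at base 23 were therefore present in all 4 families, while those at base 26 were rarer in the other 3 than in tRNA-Val in both libraries. The base at these positions differs between the families. Base 26 was most often C in tRNA-Gly, T in tRNA-Glu-CTC and C in tRNA-His, against G in tRNA-Val. These are positions in the read and were not aligned to the same place in each folded tRNA.

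**Figure D4:**
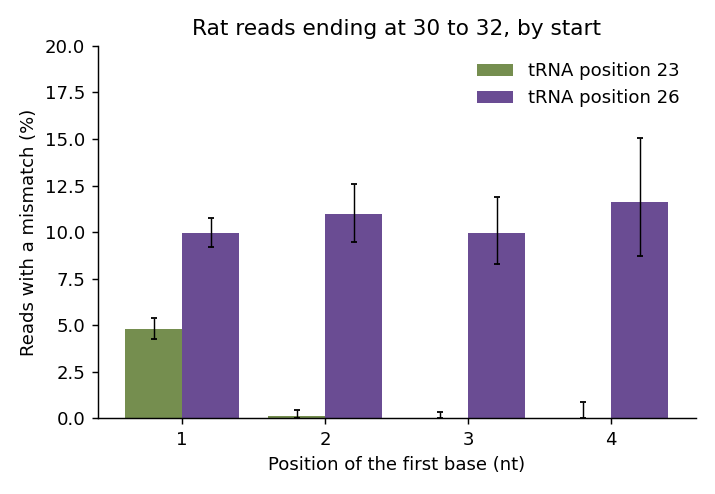
Rat tRNA-Val reads ending at 30 to 32: share, in percent, mismatched at tRNA positions 23 and 26 (bars with exact 95% intervals), by the position of the first base of the read (x axis, nt). Position 26 lies between 9.95% and 11.6% at every start, and position 23 falls from 4.78% at a start of 1 to 0.125% or 0% later.

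A second sequence variant was present in the mouse. T20C and T27C stood together in 266 of 28016 mouse reads that cover position 27, 0.949% (0.839 to 1.07). T20C without T27C was seen in 7 mouse reads, and T27C without T20C in 68 mouse and 55 rat reads. Of these 266 reads, 231 matched a deposited mouse entry with no mismatch. Of those reading position 34, 9 had C and 7 had G. In the rat 0 of 21941 reads had both changes. Of these reads 16053 were 33 nt long, and at that length a rat read with both changes could not be listed. Such a rat read of up to 32 nt would have been listable, and 5626 rat reads ended at 30 to 32. In the mouse, 232 of the 274 reads with T20C ended at 33.

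The annotation given by the authors differed between the tables for the same fragments. All 28136 mouse members were annotated as tRNA, under 6 entries. In the rat 21277 were annotated as tRNA and 1030, or 4.62% (4.35 to 4.90), as piRNA, the class of germline small RNAs that guide PIWI proteins. The piRNA-annotated reads were 26 to 32 nt long and 0 of them matched the tRNA consensus exactly. All 21038 rat members that did match it exactly were listed under tRNA entries. The piRNA-annotated reads fell under 2 piRNA entries. The entry rno_piR_005901, which equals the consensus over the reads it took, held 934. The entry rno_piR_005900 itself differs from the consensus at G26A and held 96 reads, of which 69 carried that base.

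Fragments that start after the first base were common in the rat alone. Reads starting at position 2, 3 and 4 numbered 45, 32 and 2 for mouse and 4838, 3857 and 1570 for rat. With exact matches of 18 nt, starts at 2 to 4 made up 0.257% (0.201 to 0.324) of mouse reads starting at 1 to 4, and 31.3% (30.8 to 31.8) of rat reads. The commonest end stayed at 33 for each rat start, with 65.1%, 69.3% and 71.4% of the reads.

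The most abundant of these rat reads are shown because they share their last base with the main fragment, and capitals again mark the loop.
Rat read from 2: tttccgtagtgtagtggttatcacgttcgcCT
Rat read from 3: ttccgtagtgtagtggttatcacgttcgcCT
Rat read from 4: tccgtagtgtagtggttatcacgttcgcCT
They had 3144, 2156 and 902 reads, against 30 and 25 for the first and second in the mouse. The same measure for tRNA-Gly was 0.392% (mouse) and 2.28% (rat), and for tRNA-Glu-CTC 0.148% and 4.77%. For tRNA-His it was 17.6% (mouse) and 35.9% (rat), above tRNA-Val in both libraries. Mature tRNA-His carries an added G before its encoded 5′ end, so a start at 2 there can be the encoded first base and not a lost one. All 4 families had the higher value in the rat.

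**Figure D5:**
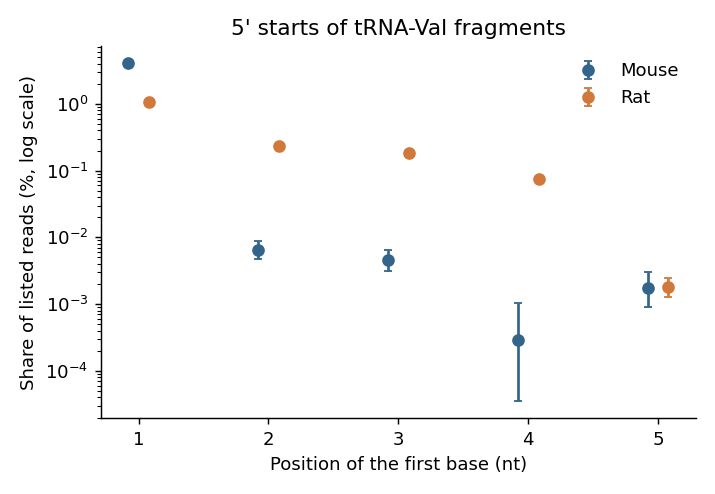
Reads of tRNA-Val as a share of listed reads (y axis, percent, log scale) by the position of the first base (x axis, nt) in either species, with exact 95% intervals. Starts at 2, 3 and 4 hold 4838, 3857 and 1570 rat reads and 45, 32 and 2 mouse reads.

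The end of tRNA-Val fragments was set beside those of tRNA-Gly, tRNA-Glu-CTC and tRNA-His by length. Fragments of tRNA-Gly were most often 30 nt long in both species (64.8% and 71.2%), as were those of tRNA-Glu-CTC (34.5% and 33.96%). Those of tRNA-His were most often 32 nt long in mouse sperm (39.4%) and 31 nt long in rat sperm (36.99%). The commonest length of tRNA-Val, 33 nt, held 80.8% and 71.96%. In the mouse that was the highest share at a single length among these 4 families, and in the rat it lay beside the 71.2% of tRNA-Gly (71.0 to 71.5, against 71.4 to 72.6).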

How the data were processed

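Small RNAs of 18 to 45 nt were counted in 1 mouse and 1 rat library of cauda sperm. The sources used here do not say whether animals were pooled. The authors deposited counts: reads per distinct sequence, with strand, database entry and up to 2 mismatches, per the file headers. Bowtie 0.12.7, mm9 and rn5 are named, per the submitters' processing notes, with no role stated; trimming: not given in the sources used here. Totals were 691381 mouse and 2102735 rat reads. In the mouse, 2535 rows with a date in place of an identifier had no count and were left out. Minus-strand sequences were reverse-complemented. The consensus was cut from the RefSeq promoter window of Gm46404, which holds n-TVcac9. The entry bases were read back from the listed mismatches. Gly, Glu-CTC and His fragments were taken by their commonest mouse start, with the same 18 nt and 1 mismatch, and named from textbook knowledge.

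Shares carry exact Clopper-Pearson and counts exact Poisson 95% intervals, and a count of 0 was given a limit of 3 reads. No p-value was computed. Sequences were named by rule: the 10 most abundant members per library, the commonest at each main 3′ end, the 3 commonest mismatches, the commonest for each base at position 34 and the commonest remaining fragment. Reads starting at 2 to 4 were named after their values were seen. Members and lists were chosen with earlier results of these data known. The position counts were checked on simulated reads (Python 3.11.15, SciPy 1.17.1, pandas 2.3.3).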

Additional observations from a re-analysis of the deposited data

Results flagged for a closer look

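Reads of tRNA-Val that start at positions 2 to 4 lie outside the member rule and numbered 10265 in the rat, 0.488% of its listed reads (0.479 to 0.498), against 79 in the mouse, 0.0114%. Both are above the limit that a count of 0 allows.

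Mouse reads that start at position 31 or later, from the remaining tRNA, numbered 249, 0.0360% of the listed reads.

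In the mouse table, 22 member sequences had a month and year in place of an identifier and no count. With the month read as the count they would hold 190 reads.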

How the results depend on the processing

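Of 150 recomputed values, 90 stayed within the interval of the reported value, 60 lay outside it and 0 ratios crossed 1. Allowing 2 mismatches, matching 16 or 20 nt and allowing 1 extra 5′ base moved no value outside it. Percentages below are given mouse first, then rat, unless 1 species is named. With 0 mismatches in the 18 nt, members were 3.99% and 1.05% of listed reads, reads without a mismatch 85.0% and 95.8%, and rat reads ending at 33 and annotated as tRNA 72.6% and 96.2%. With sequences of at least 10 reads, members were 4.87% and 1.17% (ratio 4.17), lengths of 28 to 36 nt 99.7% and 98.5%, loop ends 98.2% and 86.1%, no mismatch 84.4% and 95.7%, and rat ends at 33 and tRNA annotation 72.97% and 96.2%. Counting each sequence once gave 0.287% and 0.158% (ratio 1.82), 28 to 36 nt 91.6% and 83.4%, loop ends 82.7% and 38.2%, ends at 33 45.4% and 6.91%, no mismatch 8.43% and 6.45%, and tRNA annotation 39.6% of the rat sequences. Without the most abundant member, members were 1.42% and 0.306% (ratio 4.63), 28 to 36 nt 98.7% and 94.1%, loop ends 94.0% and 48.9%, ends at 33 43.4% and 1.98%, no mismatch 50.6% and 80.1%, and rat tRNA annotation 83.9%. Reading the month as the count gave 3.97% in the mouse (ratio 3.74) and no mismatch in 82.8%. Plus-strand listed reads alone gave 4.36% and 1.18% (ratio 3.70), as they lower the total and not the members. Rat members annotated as tRNA were 1.01% of listed reads (ratio 4.02), with loop ends 86.8%, ends at 33 75.5% and no mismatch 98.9%.

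Chosen after seeing the data, starts at positions 1 to 4 gave 1.55% in the rat (ratio 2.64), loop ends 87.7%, ends at 33 70.6%, no mismatch 92.1% and tRNA annotation 93.1%. Reads ending at 30 to 32, also chosen then, had no mismatch in 87.6% and 81.3%, so the order of the species for that share was the opposite of that over all members. Mismatch shares and rat ends past 33 depend on which reads the tables could list. So do rat ends at 33 and in the loop when the most abundant member is left out or each sequence is counted once. No paired analysis was possible because each species has 1 library.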
